A study of Mus musculus with 20 samples.

Results

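The major histocompatibility complex (MHC) genes of the mouse, whose symbols begin with H2-, and the genes that load their products with peptide were followed through aortic endothelium of nephrectomised Apoe-/- mice. The set was every gene whose symbol begins with H2-, with B2m, Cd74, Ciita, Tap1, Tap2, Tapbp, Psmb8, Psmb9, Psmb10 and Nlrc5. In all, 49 genes matched by symbol among the 32081 genes with a deposited FPKM value (fragments per kilobase per M assigned reads, where M is mega). Of these, 38 were also among the 20442 genes of the deposited variance-stabilized table, which holds read counts on a log2 scale. These 38 members were 26 class I genes with their processing genes and their regulator Nlrc5, 11 class II genes with Cd74 and the regulator Ciita, and H2-Ke6, which belongs to neither class. A mean of at least 0.5 FPKM over all libraries was required for testing, and 36 members passed it, 25 of class I and 11 of class II. H2-Q1 and H2-Ke6 did not pass.

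Each of the 20 libraries came from the aortic endothelium of 1 female mouse of the strain B6.129P2-Apoetm1Unc/J, genotype Apoe-/-, which had 5/6 nephrectomy (Nx) at 9 weeks of age. The endothelium was sheared off the aorta and lysed in qiazol for total RNA, so the cells collected are those this step released. A single retro-orbital injection was given 7 weeks after surgery, and tissue was taken 1 week after it. The 5 groups of 4 mice received saline, 4 mg of HDL (high-density lipoprotein), HDL with 20 mg/kg LNA92a, HDL with 20 mg/kg LNA489, or HDL with both (40 mg/kg LNA in total). LNA92a is a locked nucleic acid inhibitor directed at miR-92a-3p, and LNA489 one directed at miR-489-3p. Every group lacked Apoe and most of its kidney mass, so no difference below bears on either, and there was no group with a control LNA. Each library is called by its treatment and the number of its mouse (Saline 1, 2, 9 and 24; HDL 3, 4, 11 and 23; LNA92a 5, 12, 17 and 18; LNA489 7, 13, 14 and 19; dual 8, 10, 15 and 21, where dual is both inhibitors), and values are listed in that order.

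MHC class I molecules are present on nearly all cells, endothelium included. They consist of a heavy chain and beta-2 microglobulin (B2m). They carry peptides that the proteasome cuts, in its constitutive form or as the immunoproteasome, and the TAP transporter brings into the endoplasmic reticulum. MHC class II molecules are paired alpha and beta chains found mainly on dendritic cells, macrophages and B cells. They are escorted by the invariant chain Cd74, exchange it for peptide with the help of H2-DM, and are restrained in this by H2-O, which is best known from B cells. Transcription of class II genes depends on Ciita and that of class I genes in large part on its relative Nlrc5, both of which act through short promoter elements shared by the genes.

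The promoter letters of both classes are shown first because the members are described as 2 classes. RefSeq windows from 250 bases before to 50 bases after the start (build GRCm38.p6) were found for 28 of the 38 members. No window was used for Cd74, Ciita, H2-Ab1, H2-K2, H2-Q1, H2-Q5, H2-T10, H2-T24, Nlrc5 and Tap2. In the stretches of 76 bases below, read 5′ to 3′ on the gene's own strand, capitals mark AGCAAC, a core of the X box, and GATTGG, a core of the Y box.
H2-Aa, chr17:34287847-34287922, minus strand: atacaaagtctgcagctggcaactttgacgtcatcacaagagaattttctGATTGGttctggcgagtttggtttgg
H2-Eb1, chr17:34305757-34305832, plus strand: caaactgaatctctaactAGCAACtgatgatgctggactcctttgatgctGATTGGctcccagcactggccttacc
H2-Eb2, chr17:34325524-34325599, plus strand: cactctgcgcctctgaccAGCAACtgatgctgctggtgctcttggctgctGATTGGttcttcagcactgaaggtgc
H2-Oa, chr17:34092285-34092360, plus strand: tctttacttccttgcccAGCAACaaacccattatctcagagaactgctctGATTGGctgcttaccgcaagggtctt
H2-Ob, chr17:34238797-34238872, plus strand: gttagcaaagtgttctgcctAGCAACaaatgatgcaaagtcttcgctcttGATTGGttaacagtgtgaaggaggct
H2-DMb1, chr17:34153079-34153154, plus strand: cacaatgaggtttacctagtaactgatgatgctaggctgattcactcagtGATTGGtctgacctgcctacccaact
H2-DMb2, chr17:34145108-34145183, plus strand: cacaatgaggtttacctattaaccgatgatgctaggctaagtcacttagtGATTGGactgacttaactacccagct

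GATTGG stood on the gene's strand in all 8 class II genes with a window, compared with 8.71% of all 32851 windows. With both strands searched it was in the same 8 of 8 class II genes, in 12 of 19 class I genes and in 16.1% of all windows. AGCAAC, searched on both strands, was in 4 of 8 class II genes (H2-Eb1, H2-Eb2, H2-Oa and H2-Ob), 3 of 19 class I genes and 14.8% of all windows. In these 4 class II genes AGCAAC preceded GATTGG by 24 to 27 bases. This arrangement, with 20 to 30 bases between the marks and chosen after the sequences were seen, occurred in 12 of the 32851 windows. The windows of these 4 genes, from which it was chosen, are among the 12. AGCAAC was not found in the windows of H2-Aa, H2-DMa, H2-DMb1 or H2-DMb2, which says only that these exact letters are not there.

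The class I stretches below are those of the classical heavy chains H2-K1 and H2-D1, of 3 Qa genes and of their partner B2m. Capitals mark ATTGG on either strand, where it reads CCAAT on the reverse one, and TGACG. In B2m they also mark GAAA, any 2 bases and GAAA, a core of the interferon response element.
H2-K1, chr17:34000334-34000408, minus strand: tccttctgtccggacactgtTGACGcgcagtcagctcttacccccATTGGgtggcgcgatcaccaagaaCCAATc
H2-D1, chr17:35262973-35263057, plus strand: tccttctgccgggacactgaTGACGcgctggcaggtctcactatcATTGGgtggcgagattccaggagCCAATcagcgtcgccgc
H2-Q4, chr17:35379493-35379577, plus strand: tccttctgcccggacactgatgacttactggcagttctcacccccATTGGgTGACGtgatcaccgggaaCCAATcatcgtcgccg
H2-Q6, chr17:35424726-35424810, plus strand: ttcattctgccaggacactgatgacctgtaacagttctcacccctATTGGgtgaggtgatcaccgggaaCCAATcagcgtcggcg
H2-Q7, chr17:35439070-35439154, plus strand: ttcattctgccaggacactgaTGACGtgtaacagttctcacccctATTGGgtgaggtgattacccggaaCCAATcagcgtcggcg
B2m, chr2:122147544-122147658, plus strand: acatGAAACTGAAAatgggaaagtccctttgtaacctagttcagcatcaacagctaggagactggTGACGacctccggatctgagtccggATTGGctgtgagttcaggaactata

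ATTGG, which lies within GATTGG, was in 16 of 19 class I windows and 8 of 8 class II windows, compared with 37.4% of all windows. TGACG was in 10 of 19 class I, 1 of 8 class II (H2-Aa) and 20.8% of all windows. The interferon element core was in B2m, H2-T22 and H2-T23, in none of the 8 class II windows, and in 3.44% of all windows. No motif of the 5 searched was found for Psmb8, Psmb10 or H2-Q10. The stretches of H2-Q6 and H2-Q7 were the same at 82 of 85 positions. Near-identical copies of this kind also concern the counts: 19 of the 38 members share more than 10% of their 50-base words with another gene, up to 53.5% in H2-T22 and 50.4% in H2-T10, and 20 overlap another gene model (Tap1 with Psmb9, for example). Values of H2-Q4, H2-Q5, H2-Q6, H2-Q7, H2-T10, H2-T22, H2-DMb1, H2-DMb2 and the other members over 10%, and of the overlapping genes, are therefore uncertain as to which copy or neighbour the reads came from.

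The libraries held 11.6 to 21.4 M assigned reads and differed widely in cell type markers, in every group. The summed level of 10 endothelial genes, which include Pecam1 and Cdh5, ran from 60.8 FPKM (HDL 4) to 2042 FPKM (HDL 23), with none of the 10 at 0 in any library. The sum of 7 adipocyte genes ran from 52.5 FPKM (Saline 9) to 2832 FPKM (LNA92a 12), and that of 11 macrophage and monocyte genes from 603 FPKM (LNA92a 17) to 10617 FPKM (LNA489 13). In 3 libraries a marker list stood apart from the rest. The sum of 9 B and plasma cell genes was 6618 FPKM in HDL 11, compared with at most 1246 FPKM (LNA489 14) in any other, and no gene of that list was at 0 anywhere. The sum of 6 adrenal cortex genes was 1904 FPKM in Saline 2 and 1601 FPKM in dual 10, compared with at most 24.4 FPKM (LNA489 14) elsewhere, and 5 of these 6 genes were at 0 in some library. The range of the B and plasma cell sum was 125 to 283 FPKM in saline, 114 to 6618 in HDL, 83.3 to 636 with LNA92a, 112 to 1246 with LNA489 and 127 to 506 in the dual group. The endothelial range was 71.2 to 1892 FPKM in saline, 60.8 to 2042 in HDL, 63.3 to 972 with LNA92a, 121 to 580.3 with LNA489 and 127 to 1367 in the dual group, so that all groups overlapped in both. Counts, class medians and named differences in the comparisons with HDL are therefore given with and without HDL 11, and values that rest on Saline 2 or dual 10 also without that library.

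The classical class I heavy chains were among the most abundant members. H2-K1 (chr17:33996017-34000347, minus strand, GRCm38) measured 111, 166, 199.8 and 324 FPKM in the saline libraries, 252, 127, 487 and 276 in HDL, 106, 142, 179 and 177 with LNA92a, 104, 204, 216 and 149 with LNA489, and 158, 235, 146 and 210.1 in the dual group. HDL 11 was the highest and LNA489 7 the lowest, and the 5 groups overlapped. H2-D1 (chr17:35262730-35267499) measured 142, 249, 431 and 356 FPKM in saline, 317, 154, 294 and 305 in HDL, 105, 153, 170.1 and 232 with LNA92a, 125, 409, 205 and 169 with LNA489, and 239, 305, 176 and 319 in the dual group. Here HDL 11 lay inside the range of the others, and Saline 9 and LNA489 13 were the highest. B2m (chr2:122147686-122153083), the light chain of all class I molecules, measured 904, 832, 1647 and 1269 FPKM in saline, 887, 800.4, 1568 and 1199 in HDL, 609.5, 1013, 669.9 and 775 with LNA92a, 631, 1700.2, 1500.5 and 582 with LNA489, and 846, 2544, 1444 and 1289 in the dual group. It was highest in dual 10. On the FPKM scale 3 of the 4 dual libraries lay above all LNA92a libraries while the 4th, dual 8, lay within their range. On the variance-stabilized scale the same 3 lay above all LNA92a libraries (13.46 to 13.64), but dual 8, at 13.36, lay below them all. All genes together read lower on the FPKM scale with LNA92a. Their median difference from HDL was -0.47 on log2(FPKM + 0.1) and -0.06 on the variance-stabilized scale, so differences below are taken from the variance-stabilized scale.

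The class I regulator Nlrc5 (chr8:94434356-94527272), an activator of class I transcription, measured 3.22, 3.86, 11.2 and 15.8 FPKM in saline, 6.70, 1.20, 38.1 and 8.09 in HDL, 1.28, 3.65, 5.98 and 3.80 with LNA92a, 2.64, 6.24, 4.07 and 4.18 with LNA489, and 3.01, 6.33, 3.33 and 7.12 in the dual group. It varied 31.8-fold over the libraries, against 4.69-fold for H2-K1 and 4.11-fold for H2-D1. The peptide transporter subunits ran from 3.78 FPKM (LNA489 7) to 51.4 FPKM (HDL 11) for Tap1 and from 5.35 FPKM (LNA92a 18) to 24.2 FPKM (HDL 11) for Tap2, while Tapbp, which bridges the transporter to class I, ran only from 38.7 to 96.8 FPKM. The immunoproteasome subunits Psmb8, Psmb9 and Psmb10 summed to 13.4 FPKM (LNA489 7) to 106 FPKM (HDL 11). Their sum over that of the constitutive subunits Psmb5, Psmb6 and Psmb7 they replace ran from 0.253 in HDL 4 to 2.10 in HDL 11, with a median of 0.540. HDL 11, HDL 23 and LNA92a 17 alone exceeded 1.

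Nonclassical class I genes ranged from steady to widely variable. H2-T22 and H2-T23 varied 3.13-fold and 3.57-fold over the libraries, less than the classical H2-K1 and H2-D1, whereas H2-Q6 and H2-Q7 varied 16.5-fold and 24.6-fold. H2-Q6 and H2-Q7, which encode the Qa-2 antigen, summed to 13.4 FPKM in LNA92a 5 and 249 FPKM in HDL 11, and next to 161 FPKM in Saline 24. H2-M2, a nonclassical class I gene, had the widest range of the members detected in every library, from 0.203 FPKM in HDL 4 to 57.4 in dual 10, with 50.7 in LNA489 13 and 36.0 in Saline 9. H2-Q10, whose product is best known as a secreted class I protein of the liver, was at most 4.27 FPKM (LNA92a 12). H2-M9 was at 0 in 8 libraries and highest in HDL 4, at 5.01 FPKM.

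The main class II chains and Cd74 were detected in every library of this endothelial preparation. H2-Eb2, a further beta chain, was at 0 in Saline 24, and H2-Oa fell to 7 reads (0.383 FPKM) in HDL 4. H2-Ab1 (chr17:34257689-34269419), the beta chain of I-A, measured 73.8, 159, 162 and 105 FPKM in saline, 110.2, 77.4, 414 and 78.5 in HDL, 75.0, 129, 93.4 and 64.3 with LNA92a, 66.5, 168, 141 and 82.8 with LNA489, and 80.2, 292, 101 and 122 in the dual group. H2-Aa (chr17:34282744-34287823), its alpha chain, measured 76.3, 144, 164 and 92.8 FPKM in saline, 107, 80.3, 367 and 105 in HDL, 80.9, 108, 92.7 and 60.8 with LNA92a, 65.1, 172, 134 and 79.0 with LNA489, and 86.6, 248, 98.1 and 122 in the dual group. HDL 11 was highest and dual 10 second for both chains, and all groups overlapped. H2-Eb1 (chr17:34305867-34316674), the beta chain of I-E, measured 53.6, 119, 100.2 and 70.4 FPKM in saline, 99.9, 61.3, 348 and 68.0 in HDL, 71.1, 85.7, 74.7 and 43.8 with LNA92a, 37.0, 125, 118 and 63.9 with LNA489, and 65.1, 182, 70.9 and 86.5 in the dual group. The I-E alpha chain gene was not among the 49 genes matched by symbol, so its level is not known here. The values of H2-Eb1 alone do not show whether I-E was present.

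Cd74, the invariant chain, measured 297, 565, 832 and 556 FPKM in saline, 524, 318, 2169.9 and 460.3 in HDL, 351, 518, 419 and 288 with LNA92a, 247, 905, 658 and 369 with LNA489, and 406, 1468, 490.2 and 735 in the dual group. Its ratio to H2-Ab1 stayed between 3.55 and 6.03 in all 20 libraries, HDL 11 included at 5.24. Ciita (chr16:10480059-10528418), the class II regulator, measured 1.33, 4.37, 7.90 and 5.35 FPKM in saline, 6.21, 1.82, 54.4 and 3.72 in HDL, 2.05, 4.09, 8.65 and 2.00 with LNA92a, 1.179, 6.64, 5.39 and 3.62 with LNA489, and 1.56, 5.95, 2.00 and 5.59 in the dual group. Outside HDL 11 no library exceeded 8.65 FPKM of Ciita. Class II chains summed (H2-Aa, H2-Ab1 and H2-Eb1) over classical class I (H2-K1 and H2-D1) gave a ratio of 0.394 in Saline 24 to 1.45 in HDL 11, with dual 10 next at 1.34. Fewer cells of a type and less RNA per cell cannot be told apart in these bulk libraries.

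**Figure D1:**
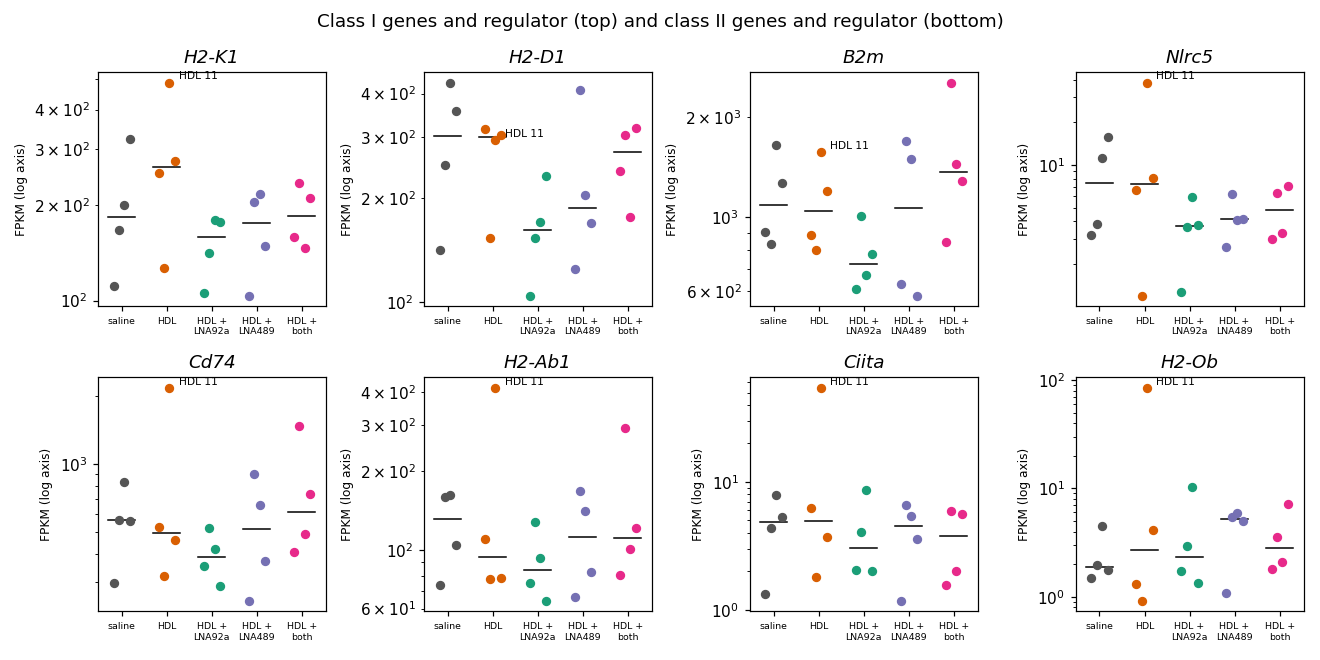
FPKM (log axes) of 4 class I genes (top) and 4 class II genes (bottom) in each of the 20 libraries, by treatment group. Points are libraries and black lines the group medians; HDL 11 is marked, and it is the highest point for Cd74, H2-Ab1, Ciita, H2-Ob, H2-K1 and Nlrc5 but not for H2-D1 or B2m.

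HDL 11 held the highest value of all 11 class II members and of 17 of the 25 class I members, compared with 19.9% of all 16848 genes tested. The size of its excess separated class II genes into sets. Over the median of the other 19 libraries, the excess was 40.5-fold for H2-Ob (85.0 FPKM), 38.9-fold for H2-Eb2, 21.2-fold for H2-DMb2, 17.2-fold for H2-Oa and 13.3-fold for Ciita. It was 4.43-fold for Cd74, 4.09-fold for H2-Ab1, 3.74-fold for H2-Aa, 4.90-fold for H2-Eb1, 4.69-fold for H2-DMa and 3.51-fold for H2-DMb1. H2-Oa and H2-Ob encode the 2 chains of H2-O, and H2-DMb2 one of the paired H2-DM beta chains. The ratio of H2-O to H2-DM expression reached 0.670 in HDL 11, against a median of 0.161, and the ratio of H2-DMb2 to H2-DMb1 reached 2.76, against a median of 0.384. Among class I members the excess was 10.7-fold for H2-Q7, 9.38-fold for Nlrc5 and 8.99-fold for H2-Q5, but 1.27-fold for H2-D1 and 1.73-fold for B2m. The median excess was 4.90-fold over class II, 3.14-fold over class I and 1.28-fold over the 16768 tested genes whose median in the other libraries was above 0. HDL 11 also had the highest sum of 9 T and NK cell genes, at 328 FPKM, compared with at most 210 FPKM (Saline 9) elsewhere. Its endothelial sum was 247 FPKM, against a median of 502 FPKM over the libraries. The part of the B cell genes and of these other markers of HDL 11 in the values above was not tested.

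**Figure D2:**
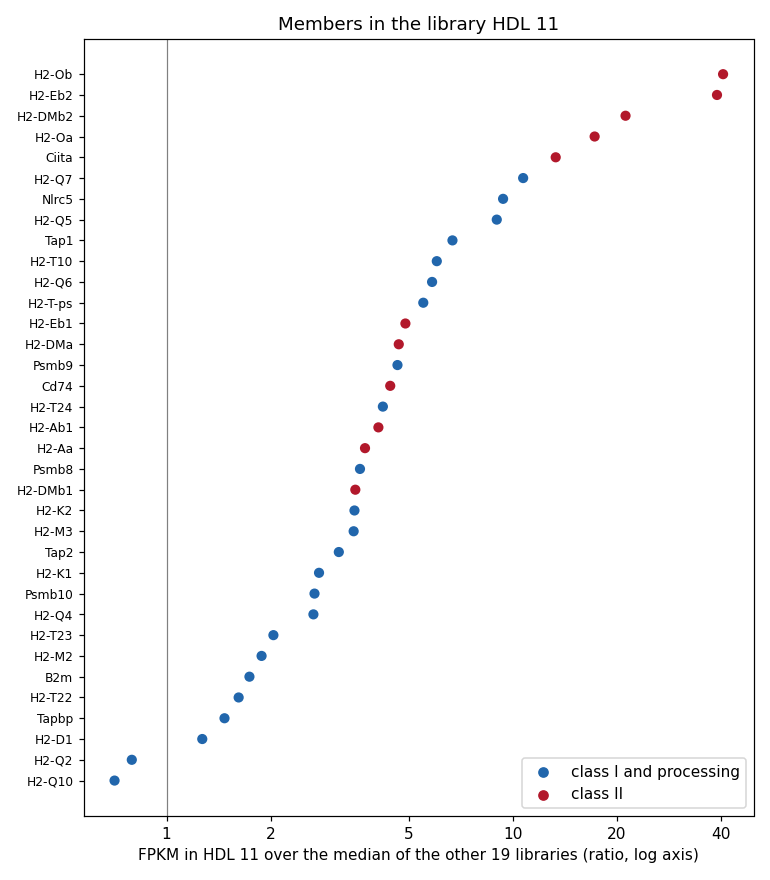
FPKM in HDL 11 over the median of the other 19 libraries, as a ratio on a log axis, for the 35 tested members with reads in HDL 11 (blue, class I and processing; red, class II). H2-Ob, H2-Eb2, H2-DMb2, H2-Oa and Ciita lie between 13.3 and 40.5, to the right of every class I member.

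No member passed the test of a difference between groups. The test was limma's moderated test on the variance-stabilized values of all 20 libraries, with Benjamini-Hochberg adjustment over 16848 genes. At an adjusted p under 0.05, 0 of 36 members and 0.00% of all genes were called in each of the 7 comparisons and in the F-test over the 5 groups (0.00%). The smallest F-test p of a member was that of H2-K1 (0.297, adjusted p = 0.9997). The between-group share of the variance had a median of 15.3% in class I members and 7.80% in class II members, against 16.0% over all genes tested. With 5 groups of 4 libraries, differences between single libraries alone give a sizeable share, so these values show no effect of treatment.

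**Figure D3:**
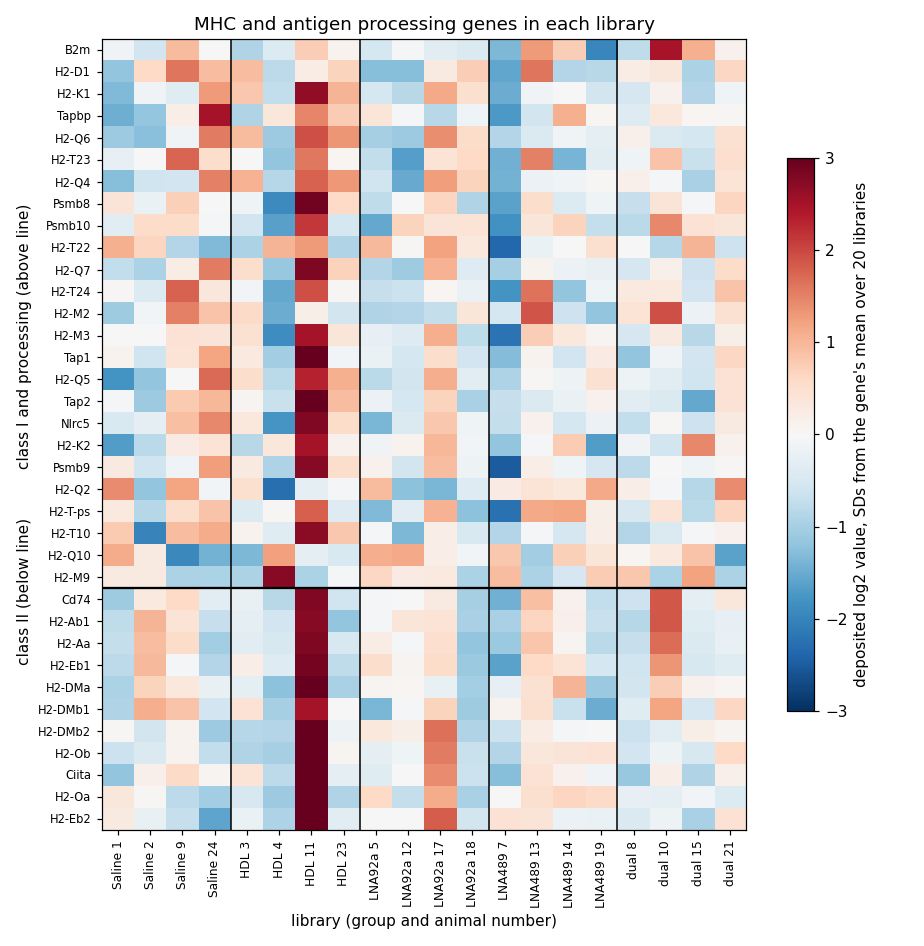
Deposited log2 values of the 36 tested members in the 20 libraries, each gene shown as SDs from its own mean (red higher, blue lower); class I above the thick line, class II below, ordered by mean FPKM, with vertical lines between the treatment groups. HDL 11 is the darkest red column for class II, and dual 10 follows for Cd74, H2-Ab1, H2-Aa and H2-Eb1.

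HDL without an inhibitor was compared with saline. Class II members were higher in HDL for 11 of 11, with a median log2 difference of 0.40, and class I members for 18 of 25, with a median of 0.09, whereas the median of all genes was 0.03 with 54.0% higher. Without HDL 11, only 1 of 11 class II members and 8 of 25 class I members were higher, the medians were -0.21 and -0.09, and that of all genes was 0.00. With any other single library left out, the class II median lay between 0.26 (Saline 24) and 0.65 (HDL 23) and the class I median between 0.04 (Saline 2) and 0.45 (HDL 4). None of the 36 members had an unadjusted p under 0.05, compared with 1.67% of all genes, and none did without HDL 11, compared with 2.68%. The smallest p values belonged to H2-Q5, at 0.642, 1.62, 7.37 and 30.5 FPKM in saline and 10.5, 2.33, 49.2 and 16.7 in HDL (log2 difference 1.164 ± 0.72 SE, limma adjusted p = 0.9997), to H2-Q4 (0.69 ± 0.44) and to H2-K1 (0.44 ± 0.29). The groups overlapped in all 3, and without HDL 11 the differences were 0.62 ± 0.72, 0.48 ± 0.47 and 0.20 ± 0.28. HDL 4, which had the lowest endothelial sum, held the lowest value of 5 class I and 3 class II members (9.12% of all genes tested were lowest there). LNA489 7, at an endothelial sum of 188 FPKM, held the lowest value of 10 class I and 3 class II members (10.5% of all genes). Without HDL 4, H2-Q4, H2-Q5, H2-Q6 and H2-K1 had unadjusted p under 0.05 and were higher in HDL (4 of 36 members, compared with 2.51% of all genes). The same 4 did so without Saline 24 (against 1.93% of all genes). The smallest adjusted p of a member was 0.89 without HDL 4 and 0.99 without Saline 24.

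**Figure D4:**
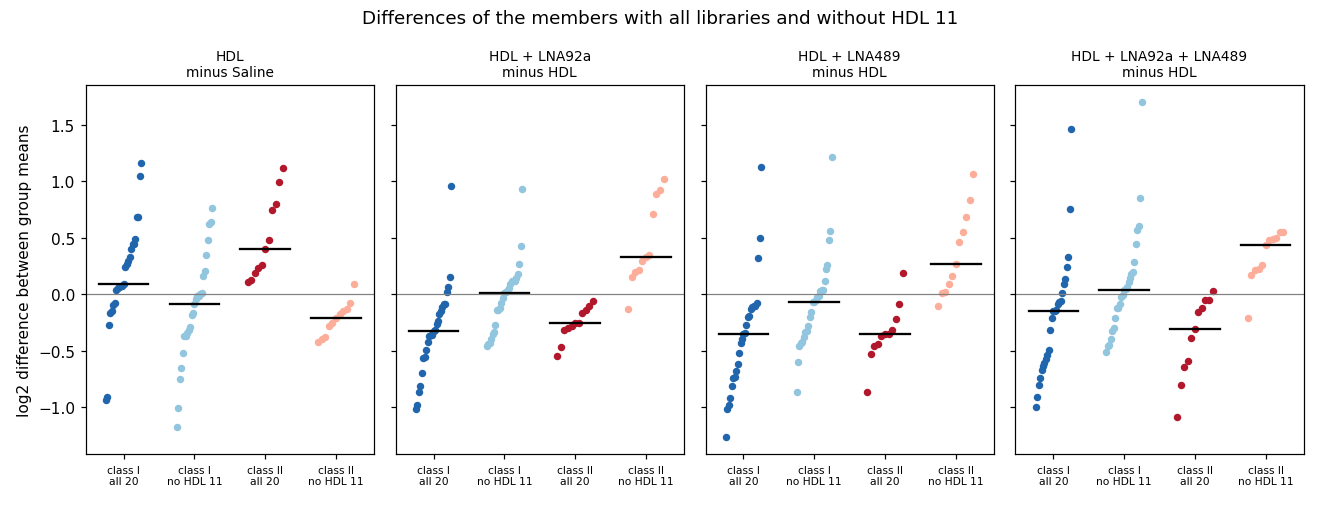
Log2 differences of the members (points) and their medians (black lines) in the 4 comparisons that involve HDL, by class, with all 20 libraries (dark) and without HDL 11 (light). The class II median moves from 0.40 to -0.21 in HDL minus saline and from below 0 to above 0 in the 3 comparisons of an inhibitor group with HDL.

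Each inhibitor group was compared with the same HDL libraries, so these 3 comparisons share their control. With LNA92a, 11 of 11 class II members (median -0.26) and 21 of 25 class I members (median -0.32) were lower than in HDL, against a median of -0.06 and 44.2% higher over all genes. Without HDL 11 the class II median was 0.33, with 10 of 11 higher, and the class I median 0.01. With any other single library left out, the class II median lay between -0.53 (HDL 4) and -0.06 (LNA92a 18, with 6 of 11 lower) and the class I median between -0.61 (HDL 4) and -0.23 (LNA92a 12). At an unadjusted p under 0.05 there were 0 of 36 members, compared with 3.53% of all genes, and 0 of 36 without HDL 11, compared with 1.93%. The smallest p belonged to H2-T10, a polymorphic pseudogene in the annotation, at 1.80, 1.05, 8.68 and 2.85 FPKM in HDL and 1.03, 0.559, 1.23 and 0.957 with LNA92a (-0.81 ± 0.45). Tap2 differed by -0.42 ± 0.26 and H2-Q7 by -1.02 ± 0.66 (limma adjusted p = 0.87 for all 3). Without HDL 11 these 3 differences were -0.40 ± 0.42, -0.14 ± 0.23 and -0.34 ± 0.59. Without HDL 4, 8 of 36 members had an unadjusted p under 0.05 and were lower, compared with 7.75% of all genes: Psmb8, Tap2, H2-Q4, H2-Q5, H2-Q6, H2-Q7, Nlrc5 and H2-T10, with a smallest adjusted p of 0.28.

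With LNA489, 10 of 11 class II members (median -0.36) and 22 of 25 class I members (median -0.36) were lower than in HDL, against a median of -0.05 and 44.8% higher over all genes. Without HDL 11 the class II median was 0.26, with 10 of 11 higher, and the class I median -0.07, with 9 of 25 higher. With any other single library left out, both lay between -0.63 (HDL 4, for both classes) and -0.18 for class II or -0.19 for class I (LNA489 7). Only H2-K1 had an unadjusted p under 0.05 (1 of 36 members, compared with 3.79% of all genes), at -0.61 ± 0.29 with a limma adjusted p of 0.92. Without HDL 11 it had -0.38 ± 0.28 and no longer did, and the 1 of 36 members that did was H2-Oa (1.065 ± 0.39, limma adjusted p = 0.99), higher with LNA489, compared with 2.99% of all genes. For H2-K1, 1 of the 4 LNA489 libraries lay below every HDL library. Psmb9, an immunoproteasome subunit, measured 5.13, 2.13, 19.7 and 6.09 FPKM in HDL and 0.785, 5.22, 4.52 and 2.98 with LNA489 (-0.92 ± 0.44), and H2-Q4 differed by -0.81 ± 0.44. Without HDL 11 these were -0.46 ± 0.39 and -0.60 ± 0.47. Without HDL 4, 11 of 36 members, all of class I, had an unadjusted p under 0.05 and were lower, compared with 7.08% of all genes: those named for LNA92a with Tap1, H2-K1 and Psmb9. The smallest adjusted p among them was 0.36.

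With both inhibitors, 10 of 11 class II members (median -0.31) and 18 of 25 class I members (median -0.15) were lower than in HDL, against a median of -0.03 and 46.4% higher over all genes. Without HDL 11 the medians were 0.44, with 10 of 11 higher, and 0.04, with 13 of 25 higher. With any other single library left out, the class II median lay between -0.56 (HDL 23) and -0.19 (dual 8) and the class I median between -0.37 (HDL 3) and -0.12 (dual 8). At an unadjusted p under 0.05 there were 0 of 36 members, compared with 2.47% of all genes, and 0 of 36 without HDL 11, compared with 1.68%. Tap2 measured 9.36, 6.00, 24.2 and 12.2 FPKM in HDL and 7.70, 9.21, 5.63 and 11.4 in the dual group (-0.50 ± 0.26), H2-K1 differed by -0.54 ± 0.29 and H2-T10 by -0.74 ± 0.45 (limma adjusted p = 0.998 for all 3). Without HDL 11 these 3 differences were -0.21 ± 0.23, -0.30 ± 0.28 and -0.32 ± 0.42. Without HDL 4, 11 of 36 members had an unadjusted p under 0.05 and were lower, compared with 5.40% of all genes, with Ciita the 1 class II gene among them and a smallest adjusted p of 0.54.

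The dual group was set against saline and against each inhibitor alone. Against saline, class II members had a median of 0.09 and class I members one of -0.09, with 0 of 36 members at an unadjusted p under 0.05, compared with 1.05% of all genes. The class II median turned on single libraries. With all libraries 10 of 11 members were higher in the dual group, compared with 50.2% of all genes. The median was -0.06 without Saline 24 (3 of 11 higher), -0.05 without dual 10 (4 of 11), -0.03 without Saline 1 (5 of 11) and 0.25 without Saline 2. The class I median lay between -0.18 (dual 21) and 0.01 (Saline 9) with a library left out. Nlrc5 had the smallest p, at -0.62 ± 0.63 (-0.83 ± 0.69 without Saline 2, -0.71 ± 0.70 without dual 10). Against LNA92a the medians were -0.02 and 0.02, again with 0 of 36 members, compared with 2.46% of all genes. With a library left out they ran from -0.25 (LNA92a 18 or dual 10) to 0.18 (LNA92a 17) and from -0.05 (LNA92a 5) to 0.24 (LNA92a 17). H2-M2 had the smallest p there, at 0.777, 1.20, 1.17 and 6.55 FPKM with LNA92a and 8.41, 57.4, 4.03 and 10.4 in the dual group (1.78 ± 0.98, limma adjusted p = 0.9999), with 3 of 4 dual libraries above all LNA92a libraries. B2m followed at 0.42 ± 0.31. Without dual 10 these were 1.146 ± 1.009 and 0.19 ± 0.31. On the FPKM scale the sum of the 11 macrophage and monocyte genes, none of them at 0 in any library, did not overlap between these groups. It was 603 to 1949 FPKM with LNA92a and 2983 to 8590 FPKM in the dual group. All genes together also read higher in the dual group on that scale, with a median difference of 0.45 on log2(FPKM + 0.1). The share of all genes whose FPKM did not overlap between these groups was not taken. The part of the macrophage and monocyte sum in these differences was not tested. On log2(FPKM + 0.1), 24 of 25 class I and 8 of 11 class II members were higher in the dual group than with LNA92a, as were 84.1% of all genes, compared with 13, 5 and 47.4% on the variance-stabilized scale. Against LNA489 the medians were 0.03 and 0.12, with 0 of 36 members, compared with 1.64% of all genes, and B2m (0.41 ± 0.31) and H2-M2 (1.14 ± 0.98) had the smallest p. Without dual 10 these were 0.18 ± 0.31 and 0.51 ± 1.009. With a library left out the medians ran from -0.12 (dual 10) to 0.21 (LNA489 14) and from -0.03 (LNA489 7) to 0.21 (LNA489 13). In this last comparison H2-Oa was the 1 member whose groups did not overlap, compared with 1.34% of all genes: all 4 dual libraries lay below the 4 LNA489 libraries on the variance-stabilized scale (-0.58 ± 0.61). On the FPKM scale it measured 1.65, 3.52, 4.197 and 3.17 with LNA489 and 1.49, 1.75, 1.82 and 1.46 in the dual group, and LNA489 7 fell within the dual range. Among all genes the F-test gave an unadjusted p under 0.05 for 1.68% and for 0 of 36 members.

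Other genes of the pathway did not pass the test either. Of 39 further antigen processing genes, among them cathepsins, proteasome subunits, chaperones and the transcription factors of both classes, 0 were called in any of the 7 comparisons. Their medians lay between -0.14 (LNA92a minus HDL) and 0.19 (dual minus HDL). Without HDL 11 these medians were -0.05 and 0.12, and without dual 10 the latter was 0.05. In HDL minus saline the median was -0.06 (16 of 39 higher), and -0.17 without HDL 11 (9 of 39 higher). In the dual group minus LNA92a, the lysosomal proteases Ctsd, Ctsb and Ctss had log2 differences of 1.71 ± 0.73, 1.67 ± 0.72 and 1.92 ± 0.83 (limma adjusted p = 0.9999 for each). These are the groups whose macrophage and monocyte sums did not overlap on the FPKM scale, as given above for H2-M2 with the shift of all genes. Without dual 10 the differences were 1.63 ± 0.81, 1.55 ± 0.79 and 1.78 ± 0.92. Rfx5, a subunit of the factor that binds the X box, differed by -0.71 ± 0.32 in dual minus HDL and by -0.41 ± 0.30 without HDL 11, where it measured 11.2 FPKM, compared with 3.30 to 4.66 FPKM in the other HDL libraries. Of 30 interferon-responsive genes, 0 were called, 26 were higher in HDL than in saline, and the median was 0.22. Without HDL 11, 14 were higher and the median was -0.02. HDL 11 had the highest interferon sum (559 FPKM) and dual 10 the next (558 FPKM). Irf1, a transcription factor on both lists, differed by -0.74 ± 0.34 in LNA489 minus HDL (limma adjusted p = 0.92) and by -0.40 ± 0.30 without HDL 11, where it measured 38.4 FPKM, compared with 7.27 to 16.3 FPKM in the other HDL libraries.

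Between libraries, members varied together more closely within class II than within class I. The median Pearson r over the 20 libraries was 0.95 among H2-Aa, H2-Ab1, H2-Eb1 and Cd74 (6 pairs), 0.73 within class II (55 pairs), 0.47 within class I (300 pairs) and 0.46 between the classes (275 pairs). These libraries share HDL 11 and a common normalization, and the medians are descriptions. In total 18 relations were tested by permutation of the libraries (100000 resamples, 2-sided), with Benjamini-Hochberg adjustment over the 18. H2-Ab1 followed Cd74 (r = 0.95, rho = 0.91, permutation p = 1e-05 for each, the smallest the permutations can give, adjusted p = 0.00018 for each) and still did without the 2 libraries farthest from the median (r = 0.85). It followed Ciita (r = 0.79, rho = 0.80, permutation p = 0.00027 and 4e-05, adjusted p = 0.00121 and 0.00036; r = 0.62 without the 2 libraries). H2-K1 followed Nlrc5 (r = 0.82, rho = 0.76, permutation p = 2e-05 and 0.00018, adjusted p = 0.00018 and 0.00108; r = 0.72 without the 2 libraries) and Tap1 (r = 0.77, rho = 0.56, permutation p = 0.00036 and 0.0105, adjusted p = 0.0013 and 0.0237; r = 0.46 without the 2 libraries). Psmb8 followed Psmb9 (r = 0.81, rho = 0.72, permutation p = 0.00016 and 0.00038, adjusted p = 0.00096 and 0.00171; r = 0.55 without the 2 libraries). H2-K1 and its light chain B2m had r = 0.21 and rho = 0.22 (permutation p = 0.378 and 0.34, adjusted p = 0.486 and 0.415; r = 0.19 without the 2 libraries).

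Relations to cell type markers differed between members. H2-K1 rose across libraries with the endothelial gene Pecam1 (r = 0.53, rho = 0.62, permutation p = 0.015 and 0.00416, adjusted p = 0.0338 and 0.0125; r = 0.44 without the 2 farthest libraries and 0.73 without HDL 11). It ran against the adipocyte gene Adipoq (r = -0.51, rho = -0.67, permutation p = 0.019 and 0.00124, adjusted p = 0.038 and 0.00446; r = -0.75 without the 2 libraries). It also ran against the macrophage gene Adgre1 (r = -0.68, rho = -0.60, permutation p = 0.0008 and 0.00622, adjusted p = 0.0024 and 0.016; r = -0.64 without the 2 libraries), but with r = -0.25 on log2(FPKM + 0.1). With Lyz2, another gene of macrophages, H2-K1 had r = 0.01 (rho = 0.18) and H2-D1 had r = 0.71 (rho = 0.63), both without a test. H2-Ab1 followed the B cell gene Cd79a only through a few libraries: r was 0.58 and rho 0.36 (permutation p = 0.0128 and 0.115, adjusted p = 0.0328 and 0.23), and r was 0.14 without the 2 farthest libraries and 0.21 without HDL 11. H2-Ab1 had r = 0.07 and rho = 0.24 with Adgre1 (permutation p = 0.76 and 0.314, adjusted p = 0.76 and 0.415; r = 0.46 without the 2 libraries). With Pecam1 its r was -0.16 and rho -0.25 (permutation p = 0.497 and 0.289, adjusted p = 0.594 and 0.415; r = -0.35 without the 2 libraries). A further 5 relations (H2-Ab1 with Itgax, Flt3, Adipoq and H2-K1, and H2-K1 with Cd3e) had r between -0.15 and 0.46, with permutation p adjusted to between 0.07 and 0.649.

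Further pairs were picked after the values were seen and carry no test. H2-Ob and H2-DMb2 followed Cd79a with r = 0.94 and 0.96 over 20 libraries and still with 0.88 and 0.91 over the 19 without HDL 11, where H2-Ab1 had 0.21. H2-Oa, the other chain of H2-O, had r = 0.84 with Cd79a, and 0.65 without HDL 11. H2-Q6 and H2-Q4 followed Pecam1 with r = 0.73 and 0.74, and with 0.85 and 0.85 without HDL 11. H2-Q7 and H2-D1 had r = 0.54 and 0.67 with Pecam1, and 0.78 and 0.68 without HDL 11. H2-M2 followed Lyz2, a gene of macrophages and neutrophils, with r = 0.91 (rho = 0.87), yet had r = 0.16 with Adgre1. H2-Q10 followed Adipoq with r = 0.96 (rho = 0.94). The part of cell makeup in these relations was not tested.

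**Figure D5:**
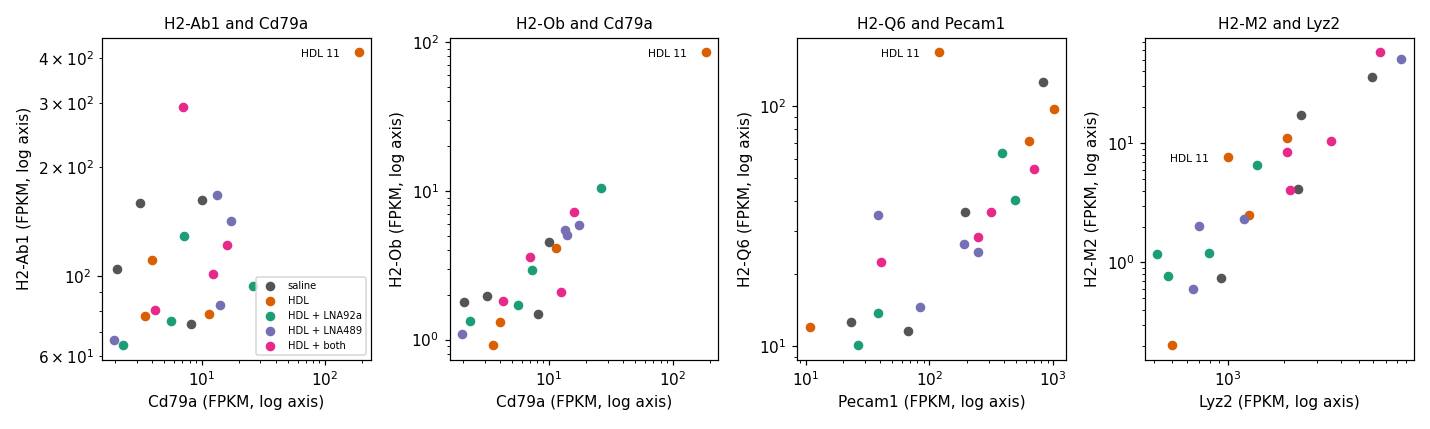
FPKM of a member against a cell type marker in the 20 libraries (log axes, colours are treatment groups), for H2-Ab1 and H2-Ob against Cd79a, H2-Q6 against Pecam1 and H2-M2 against Lyz2. On the variance-stabilized scale, H2-Ob follows Cd79a also among the libraries below HDL 11 (r = 0.88 over 19) and H2-Ab1 does not (r = 0.21). In the FPKM drawn, HDL 11 lies above the other libraries of like Pecam1 for H2-Q6.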

How the data were processed

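RNA-seq of 20 libraries (5 groups of 4 mice) was analysed. The authors deposited variance-stabilized counts on a log2 scale and, in a second table, FPKM with gene symbols and lengths. Per the submitters' processing notes, the tools included STAR 2.5.3a, featureCounts 1.15.29, DESeq2 1.18.1, cutadapt 1.16 and FastQC, with GRCm38.p5. The strand setting and how multi-mapping reads were counted are not given in the sources used here. Reads recovered from FPKM and length were whole, to within 0.1, for 100% of values in genes of up to 3000 bases and 1000 reads, and gave the depth. limma 3.58.1 in R 4.3.3 (5 group means, 15 residual degrees of freedom, variance trend) was fitted to the log2 values of 16848 genes and was tested on simulated data. Python 3.11.15 with scipy 1.17.1 ran the permutations. Alternatives changed the scale, pseudocount (0.1 or 1), filter, centring, weights, model and libraries, with voom on recovered reads. Coordinates are those of GENCODE M21 (GRCm38). Class I and II gene rules, the other lists and the 18 pairs, and which genes get values in full (the main chains, Cd74 and both regulators), were chosen with earlier results of these data known. The same holds for taking the 3 members of smallest p in each comparison, not all of which are named. Of the 18 pairs, 1 is not reported here. HDL 11, Saline 2 and dual 10 were singled out, and 11 pairs and the Lyz2 values of H2-K1 and H2-D1 added, after the values were seen.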

Additional observations from a re-analysis of the deposited data

Results flagged for a closer look

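In 9 of 180 sets of 4 libraries (36 members in 5 groups), the highest or lowest library lay far from the other 3 by Dixon's test at the 95% level; chance gives about 1 in 20. HDL 11 accounted for 3 of them. In HDL 11 the class II alpha chain H2-Aa stood at 367 FPKM, Cd74 at 2169.9 FPKM and H2-Oa, a chain of the H2-O modulator, at 28.5 FPKM. Among the dual libraries H2-Eb1 stood high in dual 10 at 182 FPKM. Low values were those of H2-Q4 in LNA489 7 at 12.6 FPKM, H2-Ob in LNA489 7 at 1.09 FPKM, Psmb10 in LNA92a 5 at 5.15 FPKM and H2-T10 in Saline 2 at 0.277 FPKM. H2-M2 stood high in LNA92a 18 at 6.55 FPKM.

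Of the 11 matching genes outside the variance-stabilized table, 7 had more than 3 reads in some treated library and a level above every saline library. H2-M11, a nonclassical class I gene, reached 2.79 FPKM (44 reads) in LNA489 7, compared with 0.269 FPKM at most in saline, and was at 0 in 17 libraries. H2-M10.2 reached 0.926 FPKM (22 reads) in dual 10, H2-M6-ps 0.824 FPKM (17 reads) and H2-T3 0.165 FPKM (9 reads) in LNA489 14. H2-M5 reached 0.595 FPKM (21 reads) in HDL 23, H2-Pb 0.466 FPKM (4 reads) in dual 21 and H2-M1 0.297 FPKM (5 reads) in HDL 4. Each of the 7 was at 0 in at least 11 libraries.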

How the results depend on the processing

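No member was called in any of 147 combinations of a test and a setting (7 comparisons and the F-test, each library left out in turn included), with a smallest adjusted p of 0.22. The 21 differences named by their p kept their direction in all 332 alternatives. They were picked from the same data for their small p, so a change of direction was unlikely and this is no test of them. Counts at an unadjusted p under 0.05 did depend on single libraries: between 0 and 11 of 36 in LNA489 minus HDL and in dual minus HDL, 0 and 8 in LNA92a minus HDL and 0 and 4 in HDL minus saline, with the most without HDL 4 (or Saline 24, in the last). With libraries weighted by their scatter, the class II median changed sign in every comparison with HDL: it was -0.01 in HDL minus saline (5 of 11 higher) and 0.07, 0.09 and 0.19 in LNA92a, LNA489 and dual minus HDL (9, 6 and 7 of 11 higher). No paired analysis was possible because the animal numbers differ between groups.

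Relations that changed their call are given as r. On log2(FPKM + 0.1), H2-K1 with Adgre1 was -0.25 and lost it, H2-Ab1 with Flt3 (0.53) and with H2-K1 (0.66), and H2-K1 with B2m (0.60) and Cd3e (0.55) gained one, and H2-Ab1 with Pecam1 turned to 0.044. With group means removed, H2-Ab1 with Cd79a (0.60) and H2-K1 with Pecam1 (0.59) and Adipoq (-0.51) lost theirs under permutation within groups. Without HDL 11, H2-Ab1 with Cd79a was 0.21 and lost it and H2-Ab1 with Adgre1 (0.54) gained one. The cause was not tested. With 4 mice a group, the SE of a log2 difference was 0.29 for H2-K1, 0.42 for H2-Ab1 and 0.72 for Ciita, and differences of that size were not detectable.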

Other observations

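The genes most like each member over the 20 libraries, by Pearson r on the variance-stabilized scale among genes that are not members, differed from member to member. This measure was chosen after the values were seen and is a description. It includes HDL 11 and was not taken without that library, where Ciita, for example, stood at 54.4 FPKM, against at most 8.65 FPKM elsewhere. For H2-Ab1 they were Fscn1 (r = 0.91), an actin bundling protein, Marcksl1 (0.86) and Dpp3 (0.85), and for Ciita they were Nfkb2 (0.93), Otulin (0.92) and Rel (0.90), of which Nfkb2 and Rel encode NF-kappaB subunits. For H2-Ob they were Pou2af1 (0.97), a B cell coactivator, Ighd (0.96), the heavy chain of IgD, and Gimap3 (0.96). For H2-M2 they were Cyba (0.94), Cd38 (0.92) and Cybb (0.92); Cyba and Cybb encode the membrane subunits of the phagocyte NADPH oxidase. For H2-K1 they were Usp36 (0.92), Irf1 (0.91) and Swap70 (0.91), and for H2-Q6 Itpr3 (0.93), Clk2 (0.92) and Fchsd2 (0.92). For B2m they were Prelid1 (0.86), Gm12715 (0.86) and Dad1 (0.85).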
